A study of Mus musculus with 4 samples.

Results

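Immune cells read bound antibody and several other ligands through receptors that signal by way of short tyrosine motifs. The genes described here encode that module in mouse: the adaptors Tyrobp and Fcer1g, the IgG receptors Fcgr1, Fcgr2b and Fcgr3, the immunoglobulin-like receptor Lilr4b, the kinases Syk and Lyn, and the phosphatase Ptpn6. The 9 genes were chosen by name, with earlier results of these data known. Every probe set whose only symbol in the platform annotation is one of them was used. This gave 11 probe sets for 8 of the 9 genes, out of 12422 probe sets tested and 8251 genes with a probe set of their own. Lyn was not analysed here.

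RNA from 2 populations of cultured mouse cells was hybridised to single-colour arrays, with 2 arrays per population. The cells derive from 1 embryonic stem (ES) cell line, named Scl+/hCD4, whose human CD4 marks cells that express the blood transcription factor Scl (gene Tal1), so all 4 arrays share this reporter. Per the labels, the cells were differentiated into embryoid bodies for 2.75 days and sorted for Scl, through human CD4, and for the VEGF receptor Flk-1 (gene Kdr). Embryoid body cells were also replated, and single blast colonies were picked and pooled before RNA extraction. The arrays carry the titles Hemangioblast and hCD4. Their sources read as differentiated hemangioblasts and as hCD4 ES cells, whereas the design text speaks of hCD4 and Blast populations, and these accounts do not settle whether a given array holds sorted cells, colonies or ES cells. Groups are therefore named by title, and each change is Hemangioblast minus hCD4. The labels do not say whether replicate arrays came from separate cultures, and the p-values then rest on a spread between arrays that may be technical.

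In this module a ligand-binding receptor often has no signalling tail of its own and pairs in the membrane with a small adaptor. The adaptor carries an immunoreceptor tyrosine-based activation motif (ITAM), in which Src family kinases such as Lyn phosphorylate paired tyrosines. Syk docks on the phosphorylated motif and passes the signal to phospholipase C gamma, Vav proteins and phosphoinositide 3-kinase. Inhibitory receptors carry a related motif, the ITIM, which recruits phosphatases such as SHP-1, the product of Ptpn6, or SHIP-1, the product of Inpp5d. Macrophages, mast cells, neutrophils, platelets and natural killer cells all use parts of the module.

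The promoters of 3 genes that were higher on the Hemangioblast arrays, Fcer1g, Lilr4b and Ptpn6, are shown beside that of Fcgr3, an Fc receptor gene on the same chromosome as Fcer1g that did not pass the test. The sequences are RefSeq's for GRCm38.p6, run from 250 bases before to 50 bases after the annotated start of transcription, and are written 5′ to 3′ on the gene's strand. Capitals mark GAGGAA, a sequence that the myeloid transcription factor PU.1 can bind, or its reverse complement TTCCTC.
Fcer1g, chr1:171234300-171234599, minus strand: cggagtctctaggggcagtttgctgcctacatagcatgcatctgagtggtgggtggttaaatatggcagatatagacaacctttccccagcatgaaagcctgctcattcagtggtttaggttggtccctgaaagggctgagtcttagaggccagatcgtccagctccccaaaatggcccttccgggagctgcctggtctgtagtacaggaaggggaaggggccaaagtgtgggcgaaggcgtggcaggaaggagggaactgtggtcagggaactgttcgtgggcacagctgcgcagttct
Lilr4b, chr10:51480362-51480661, plus strand: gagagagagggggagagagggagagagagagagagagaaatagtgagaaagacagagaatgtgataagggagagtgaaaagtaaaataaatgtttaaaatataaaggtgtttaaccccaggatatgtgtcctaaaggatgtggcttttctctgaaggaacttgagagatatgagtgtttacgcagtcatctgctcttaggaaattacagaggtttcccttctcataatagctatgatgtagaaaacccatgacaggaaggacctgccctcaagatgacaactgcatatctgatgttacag
Ptpn6, chr6:124738660-124738959, minus strand: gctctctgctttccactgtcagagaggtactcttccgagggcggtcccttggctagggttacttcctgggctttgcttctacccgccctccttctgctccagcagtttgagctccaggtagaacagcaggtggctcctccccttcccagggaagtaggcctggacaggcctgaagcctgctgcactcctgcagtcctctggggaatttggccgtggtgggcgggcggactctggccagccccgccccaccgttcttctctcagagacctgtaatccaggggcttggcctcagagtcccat
Fcgr3, chr1:171059345-171059644, minus strand: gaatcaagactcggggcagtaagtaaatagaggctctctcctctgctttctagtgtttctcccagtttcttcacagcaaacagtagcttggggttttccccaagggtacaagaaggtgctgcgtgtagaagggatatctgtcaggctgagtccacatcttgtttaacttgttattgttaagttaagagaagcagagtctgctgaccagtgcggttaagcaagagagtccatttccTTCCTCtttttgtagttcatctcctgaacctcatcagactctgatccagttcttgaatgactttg
The search covered both strands, and the 2 words are reverse complements of each other. The RefSeq promoter table used here held no window for Tyrobp, which also rose, or for Lyn. For the 7 other members it held 9 windows, of which 4 windows had a match, against 28.3% of all 32851 windows of 300 bases. The 4 windows were 1 of Fcgr1, 1 of the 2 of Syk and both of Fcgr3, which overlap and share the match. In the printed Fcgr3 window the match begins 15 bases before the start. These matches describe the letters in a window and do not show a bound site. Other sequences that PU.1 may bind were not searched, so a window without a match is not shown to lack a site.

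Signal intensity, the brightness of a probe set, is given after each array was scaled to a common trimmed mean, as mean ± SD. Log2 changes and folds were computed after 16 was added to each scaled intensity, and they come with the standard error (SE) and a Benjamini-Hochberg adjusted p over all 12422 probe sets from limma. A probe set passed at an adjusted p of at most 0.05. Trimmed means ran from 334 to 389 before scaling, and the arrays correlated with Pearson's r of 0.961 and 0.963 within the groups and 0.921 to 0.940 between them, a description across probe sets and not across replicates. With 2 arrays per group, the precision of all values is limited by their number.

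Both adaptors, Lilr4b and Ptpn6 were higher on the Hemangioblast arrays, whereas the 3 IgG receptors and Syk did not pass. Of the 11 probe sets of the members, 5 rose and 0 fell by limma, and 6 were higher and 0 lower at an unadjusted p under 0.05. By limma, an unadjusted p of 0.0471 stood at number 1979 of all 12422 probe sets, both directions together. Counts at an unadjusted p under 0.05, here and in the lists below, have that background. It was not counted for 1 probe set per gene. Over all probe sets tested, 2.91% passed as higher and 1.56% as lower, 4.48% in all. The split over all probe sets was 362 higher and 194 lower, and it was 222 and 50 without scaling between arrays. The median log2 change was 0.84 over the member probe sets and 0.04 over all probe sets. Of the 11, 5 were at least 2-fold higher in all 4 comparisons of a Hemangioblast with an hCD4 array, against 2.29% of all probe sets. These were the 5 probe sets that passed, which belong to 4 genes, so this count is not separate evidence. Both Hemangioblast arrays lay above both hCD4 arrays for 8 of the 11, against 24.8% of all probe sets. In bulk RNA, fewer cells of a type and less RNA per cell cannot be told apart.

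**Figure D1:**
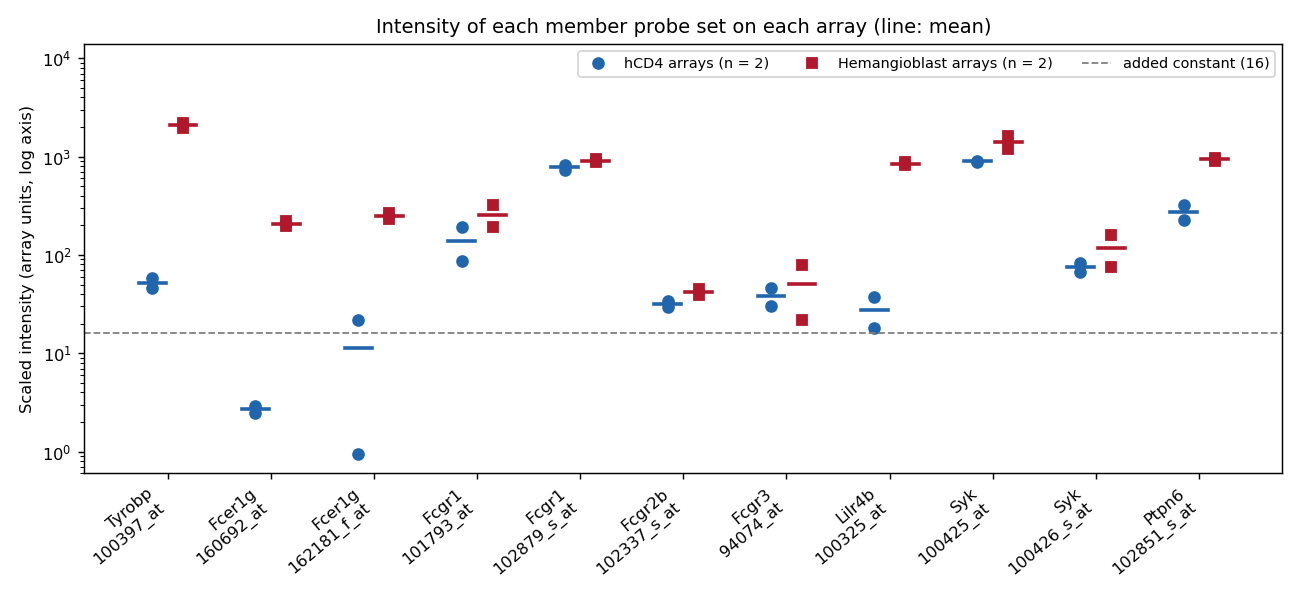
Scaled intensity of the 11 member probe sets on each array, on a log axis, with a line at the mean of each group of 2 arrays and a dashed line at the added constant of 16. The Hemangioblast and hCD4 points of Tyrobp, Fcer1g, Lilr4b and Ptpn6 lie far apart, and those of Fcgr3, of Fcgr1 by 101793_at and of Syk by 100426_s_at overlap.

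Tyrobp encodes DAP12, the ITAM adaptor of many myeloid and natural killer cell receptors. Its probe set 100397_at read 2224 and 1945 on the Hemangioblast arrays against 58.1 and 45.7 on hCD4. The arrays of a group lay close together and the groups did not overlap. The means were 2085 ± 197 and 51.9 ± 8.76 (SD, n = 2), a log2 change of 4.95 (SE 0.202, adjusted p = 3.72e-05 by limma). Among all probe sets this was number 3 by size of rise and number 2 by p-value. Across the 4 array pairs the log2 difference ran from 4.73 to 5.18.

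Fcer1g encodes the gamma chain shared by the activating IgG receptors and the IgE receptor, which also carries an ITAM. Its probe set 160692_at read 221 and 195 on the Hemangioblast arrays against 2.94 and 2.46 on the hCD4 arrays. The log2 change was 3.58 (SE 0.328, adjusted p = 0.000703 by limma). The hCD4 values lie well under the constant of 16, which therefore sets much of this change, and its size is not a measured fold. With a constant of 1 the log2 change was 5.82 and with 64 it was 2.03. The other probe set, 162181_f_at, read 266 and 232 against 0.936 and 21.6, a log2 change of 3.39 (SE 0.426, adjusted p = 0.0034). With constants of 1 and 64 this change was 5.24 and 2.07. On hCD4 replicate 1 its deposited value was exactly 1, as for 1.16% of the values of that array. Both probe sets separated the groups in the same direction.

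The IgG receptors that pair with this chain gave another picture. Fcgr1 encodes the high-affinity receptor, which needs the gamma chain to reach the cell surface. Its probe set 101793_at read 191 and 320 on the Hemangioblast arrays against 87.8 and 193 on hCD4, so the groups overlapped. The log2 change was 0.84 (95% confidence interval -0.05 to 1.73, adjusted p = 0.341 by limma). The second probe set, 102879_s_at, read 880 and 943 against 731 and 824 and did not overlap, with a log2 change of 0.23 (-0.13 to 0.59, adjusted p = 0.571). The upper bounds correspond to folds of 3.31 and 1.5.

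Fcgr3 encodes the low-affinity activating receptor, whose signal also runs through the gamma chain. It read 21.8 and 78.8 on the Hemangioblast arrays against 30.1 and 46.4 on hCD4. The hCD4 values lay between the Hemangioblast values, and the log2 change of 0.16 (95% confidence interval -0.94 to 1.26, adjusted p = 0.935 by limma) has an interval that reaches from a fold of 0.521 to one of 2.39. Its sign turned with quantile normalization (-0.07) and without Hemangioblast replicate 2 (-0.51) or hCD4 replicate 1 (-0.06). Fcgr2b, the only IgG receptor of the mouse with an ITIM, read 39.0 and 44.7 against 33.8 and 29.7. The groups did not overlap, as for 44.4% of all probe sets, and the log2 change was 0.28 (-0.49 to 1.05, adjusted p = 0.789). Both genes were dim on every array, so a change in either could be understated by the added constant. With a constant of 1 the log2 change was 0.39 for Fcgr2b and 0.15 for Fcgr3. In the RefSeq annotation of GRCm38.p6, Fcgr2b and Fcgr3 lie on chromosome 1 with Fcgr4 between them, on the chromosome that also carries Fcer1g.

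Lilr4b belongs to the gp49 family of immunoglobulin-like receptors of myeloid and mast cells. It read 814 and 874 on the Hemangioblast arrays against 18.2 and 37.1 on hCD4. The means of 844 ± 41.8 and 27.6 ± 13.4 (SD, n = 2) gave a log2 change of 4.33 (SE 0.289, adjusted p = 0.000214 by limma), number 5 by size of rise among all probe sets. The hCD4 values are near the added constant, and the log2 change was 4.97 with a constant of 1 and 3.32 with 64. The rank of Lilr4b by size depends on the constant too.

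Syk, the kinase that binds phosphorylated ITAMs, was measured by 2 probe sets. By 100425_at it read 1202 and 1635 on the Hemangioblast arrays against 884 and 910 on hCD4. The groups did not overlap, but the Hemangioblast arrays lay far apart, and the log2 change of 0.64 (SE 0.180, adjusted p = 0.103 by limma) missed the threshold. Its unadjusted p was 0.00737 and its 95% confidence interval corresponded to folds of 1.17 to 2.07. Without Hemangioblast replicate 1 the adjusted p was 0.0257 (log2 change 0.85), and over all alternatives it ran from 0.0257 to 0.383. The other probe set, 100426_s_at, read 76.1 and 159 against 67.6 and 83.6 and overlapped (log2 change 0.47, SE 0.378, adjusted p = 0.643).

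Ptpn6 encodes SHP-1, the tyrosine phosphatase that ITIM receptors recruit in blood cells. Its probe set read 904 and 976 on the Hemangioblast arrays against 227 and 324 on hCD4. The groups did not overlap, and the means of 940 ± 51.2 and 275 ± 68.5 (SD, n = 2) gave a log2 change of 1.73 (SE 0.207, adjusted p = 0.00262 by limma). The 95% confidence interval corresponded to folds of 2.39 to 4.63. With the constant of 16, the intervals of the 3 other genes that passed begin at folds of 22.5 for Tyrobp, 12.7 for Lilr4b and 7.10 and 5.31 for the probe sets of Fcer1g. With 64 the log2 change was 1.58 for Ptpn6 against 2.03 and 2.07 for Fcer1g, so the size of this gap depends on the constant. No test of the difference between members was made.

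**Figure D2:**
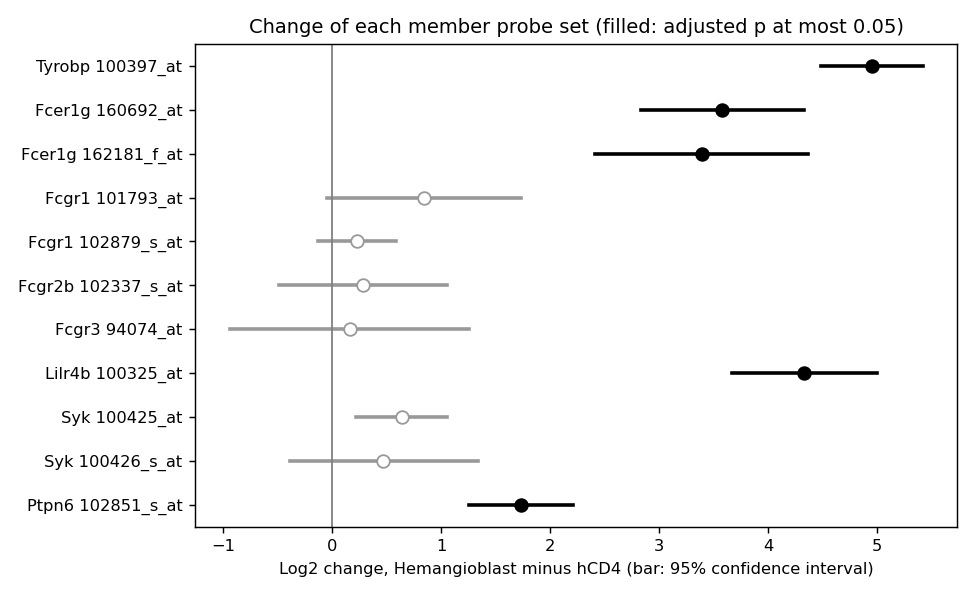
Log2 change of each member probe set, Hemangioblast minus hCD4, with its 95% confidence interval from limma. Filled points passed an adjusted p of 0.05: Tyrobp, both probe sets of Fcer1g, Lilr4b and Ptpn6, all to the right of 0.

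In the array maker's naming, the suffixes s and f mark probe sets that can match related transcripts. They stand on 5 of the 11 member probe sets, 2 of which passed (Ptpn6 and 162181_f_at of Fcer1g), and 3 of the 6 others passed. A signal from such a probe set may include a close relative, which was not tested.

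The call of each of the 5 probe sets held under all 12 alternatives to the processing, including those that leave out 1 array. Their adjusted p reached 0.00752 for Tyrobp, 0.00795 for Lilr4b and for 160692_at of Fcer1g, 0.0241 for 162181_f_at and 0.0393 for Ptpn6. None of the probe sets of Fcgr1, Fcgr2b and Fcgr3 passed under any alternative that tested them.

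**Figure D3:**
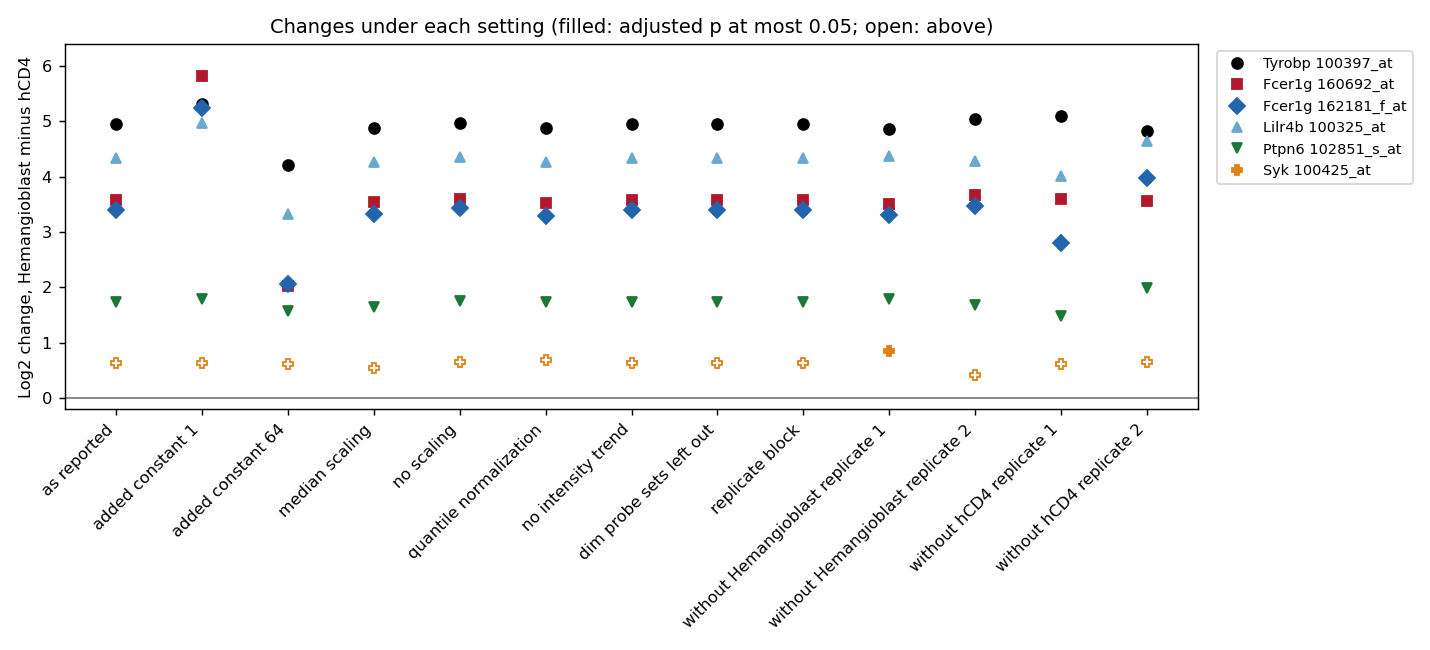
Log2 change of the 5 member probe sets that passed and of Syk by 100425_at under the reported fit and each alternative. Filled symbols have an adjusted p of at most 0.05 and open symbols a larger one. The changes of Fcer1g move the most, from 2.03 to 5.82 by 160692_at, and Syk passes at 1 setting.

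Other genes of the pathway were taken from lists by role, also chosen with earlier results of these data known, with 1 probe set per gene. Of 86 listed genes 59 were measured, of which 11 rose and 0 fell by limma, with 21 higher and 2 lower at an unadjusted p under 0.05. Over all 8251 genes, 3.39% rose and 1.96% fell. The median log2 change was 0.36 over the measured partners and 0.02 over all genes. The genes that rose stood in the lists of kinases, of adaptors and effectors, and of inhibitory receptors and phosphatases. With 1 array left out, 5 genes rose without Hemangioblast replicate 2, 6 without hCD4 replicate 1 and 7 without hCD4 replicate 2.

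Among other Fc receptors, 0 of 6 passed, and 0 also had an unadjusted p under 0.05. Those with the smallest p were Pigr, Ms4a2, Fcer1a and Fcer2a. Fcer1a, the IgE-binding chain, read 50.6 and 22.6 against 5.0 and 34.6 (adjusted p = 0.635), and Ms4a2, the beta chain of the same receptor, read 68.4 and 143 against 65.9 and 65.8 (adjusted p = 0.616). Pigr, which carries IgA across epithelia, had a log2 change of 0.36 (adjusted p = 0.590), and Fcer2a, the low-affinity IgE receptor, one of -0.24 (adjusted p = 0.722).

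Among the other signalling chains, those of the T cell and B cell receptors, 0 of 6 passed and 1 had an unadjusted p under 0.05. Cd79b, a chain of the B cell receptor, read 55.4 and 35.9 against 17.7 and 12 (log2 change 0.99, adjusted p = 0.209). Its partner Cd79a had a log2 change of 0.55 (adjusted p = 0.383), and the T cell receptor chains Cd3g and Cd3d had 0.67 and -0.56 (adjusted p = 0.617 and 0.636). Without Hemangioblast replicate 2 the value of Cd3g was -0.10, and without Hemangioblast replicate 1 that of Cd3d was 0.05.

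Receptors that pair with Tyrobp or Fcer1g, carry a related single-tyrosine motif or signal through them as integrins were mostly not measured, with 6 of 19 on the array by a probe set of their own. Of these, 0 passed and 1 had an unadjusted p under 0.05. Itgb2, the common beta chain of the leukocyte integrins, read 158 and 249 against 67.1 and 84.1 (log2 change 1.24, SE 0.317, adjusted p = 0.0738). With dim probe sets left out its adjusted p was 0.0209. Its partners Itgam and Itgal had log2 changes of 0.71 and 0.87 (adjusted p = 0.360 and 0.459), and the natural killer receptor gene Klrk1 had 0.62 (adjusted p = 0.473).

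Of 9 other kinases of the Src and Tec families and their relatives, 2 rose and 0 fell, and 5 were higher and 1 lower at an unadjusted p under 0.05. Btk, a Tec family kinase that acts after Syk, read 235 and 413 against 71.9 and 87.7 (log2 change 1.78, SE 0.319, adjusted p = 0.0190). Tec read 236 and 224 against 66.0 and 87.8 (1.41, SE 0.278, adjusted p = 0.0280). Both lost their calls when the variance model had no intensity trend (adjusted p = 0.0719 and 0.0524). Tec also lost it whichever array was left out (adjusted p = 0.0756 to 0.131), and Btk without hCD4 replicate 1 (0.103), hCD4 replicate 2 (0.0756) or Hemangioblast replicate 2 (0.132). A second, dimmer probe set of Btk read 12.4 and 63.8 against 15.5 and 15.4 and did not pass (log2 change 0.6, adjusted p = 0.663). The broadly expressed Src kinase Yes1 read 211 and 147 against 469 and 307 (log2 change -1.04, adjusted p = 0.0876), and Fyn read 453 and 419 against 300 and 288 (0.54, adjusted p = 0.179). Yes1 passed as lower with dim probe sets left out (adjusted p = 0.0228) and with the replicate number as a block (0.0267).

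Of 20 adaptors and effectors below Syk, 6 rose and 0 fell, and 7 were higher and 1 lower at an unadjusted p under 0.05. Plcg2, the phospholipase C isoform of blood cells, read 795 and 917 on the Hemangioblast arrays against 132 and 75.1 on hCD4 (log2 change 2.91, SE 0.267, adjusted p = 0.000703). Its widely expressed relative Plcg1 had a log2 change of 0.18 (adjusted p = 0.793). Rac2, a GTPase of blood cells, read 1682 and 2126 against 427 and 427 (2.11, SE 0.169, adjusted p = 0.000447). Dok2, an adaptor that restrains tyrosine kinase signals, read 555 and 509 against 77.2 and 59.0 (2.71, SE 0.245, adjusted p = 0.000686). Vav1, the exchange factor for Rac proteins in blood cells, read 391 and 524 against 135 and 107 (1.78, SE 0.250, adjusted p = 0.00608). Its relative Vav2 had a log2 change of -0.13 (adjusted p = 0.910). A second probe set of Vav1 passed too (adjusted p = 0.0218), another did not (0.940), and without Hemangioblast replicate 2 the adjusted p of the first was 0.0502.

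The other adaptors that rose, named like Plcg1 and Vav2 after their values were seen, were Lcp2 and Lat2. Lcp2, which encodes the scaffold SLP-76, read 313 and 380 against 80.1 and 116 (log2 change 1.68, adjusted p = 0.0124). Without Hemangioblast replicate 2 or hCD4 replicate 1 its adjusted p was 0.0864 and 0.0702. Lat2, a membrane scaffold of myeloid, mast and B cells, read 202 and 211 against 64.8 and 87.6 by 1 of its 2 probe sets (1.28, adjusted p = 0.0444). It lost its call whichever array was left out (adjusted p = 0.108 to 0.194), under median scaling (0.0592), without scaling (0.0648), with quantile normalization (0.0637) and without an intensity trend (0.0710).

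Of 12 inhibitory receptors and phosphatases besides Ptpn6, 3 rose and 0 fell, and 7 were higher and 0 lower at an unadjusted p under 0.05. Inpp5d, which encodes SHIP-1, read 212 and 259 against 36.2 and 23.8 (log2 change 2.46, SE 0.318, adjusted p = 0.00391). A second, dimmer probe set of Inpp5d read 42.2 and 43.0 against 20.5 and 10.7 and did not pass (0.91, adjusted p = 0.243). Inppl1, a relative of Inpp5d named after its values were seen, had a log2 change of -0.12 (adjusted p = 0.851). Ptprc encodes CD45, a phosphatase that keeps Src kinases ready to act, and read 462 and 545 against 28.5 and 2.67 (4.17, SE 0.424, adjusted p = 0.00110). The hCD4 values lie on both sides of the constant of 16, and the log2 change was 5.59 with a constant of 1 and 2.85 with 64. The 2 further probe sets of Ptprc had log2 changes of 1.47 and, in the other direction, -0.52, and did not pass (adjusted p = 0.0766 and 0.644). The last of these read 10.3 and 9.82 against 10.7 and 36.4, mostly under the constant of 16. Pag1, a membrane adaptor that brings the inhibitory kinase Csk to Src kinases, read 178 and 196 against 53.7 and 56.3 (1.51, SE 0.288, adjusted p = 0.0240). It lost its call whichever array was left out (log2 change 1.45 to 1.58). A second, dimmer probe set of Pag1 read 25.7 and 49.9 against 10.4 and 15.2 and did not pass (0.87, adjusted p = 0.308). Pirb, a paired immunoglobulin-like receptor with ITIMs, read 229 and 278 against 108 and 115 and missed the threshold (1.07, adjusted p = 0.0564). It passed with a constant of 1 (adjusted p = 0.0454), with dim probe sets left out (0.0152) and with the replicate number as a block (0.0497).

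**Figure D4:**
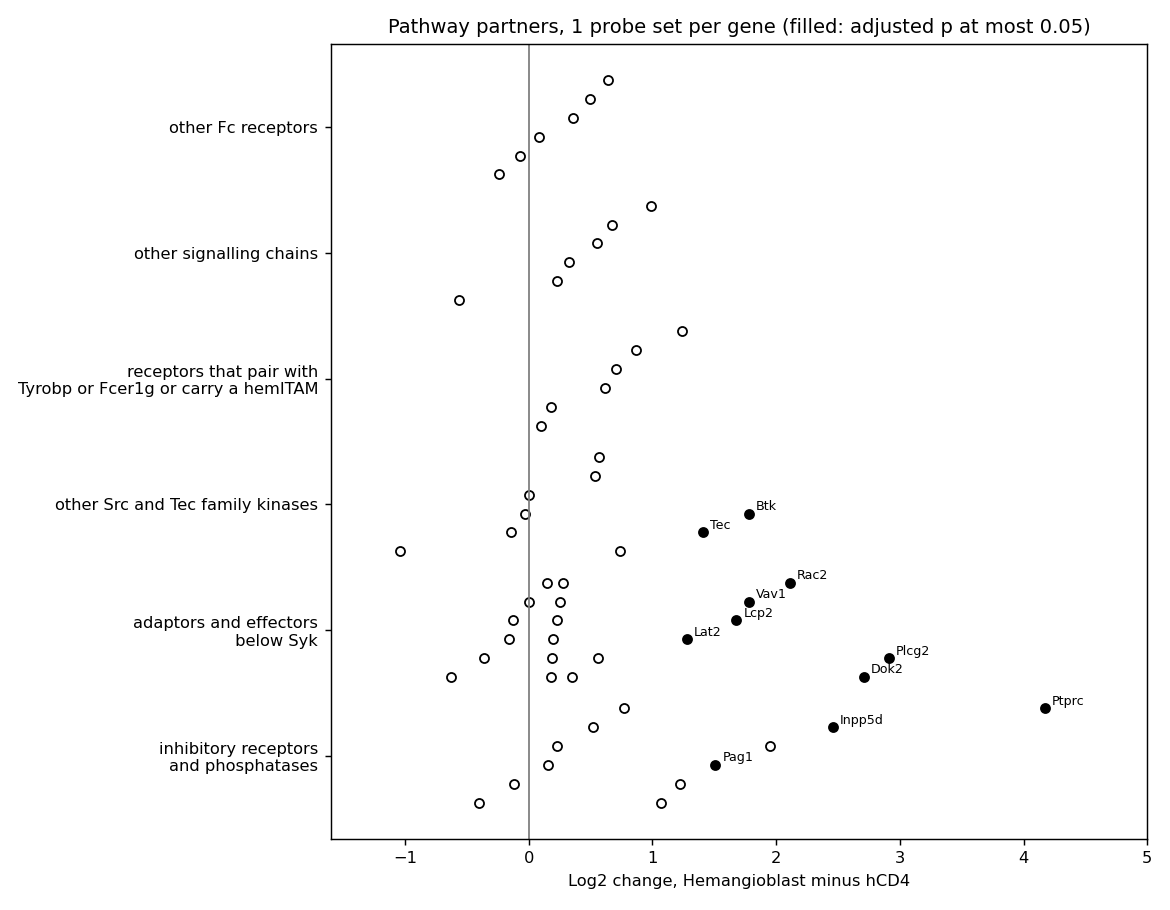
Log2 change, Hemangioblast minus hCD4, of the 59 measured partner genes by role, with 1 probe set per gene. Filled points passed an adjusted p of 0.05, and all 11 of them lie to the right of 0 in the kinase, adaptor and inhibitory lists.

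The module is shared by several blood cell types, so their markers were read on the same arrays. Of 12 macrophage markers 6 rose and 0 fell (Ctss, Csf1r, C1qc, Adgre1, Lyz2 and Cd14), and their summed scaled intensity was 4480 and 6405 on the Hemangioblast arrays against 1311 and 1376 on the hCD4 arrays. Of 10 mast cell markers 0 passed by limma and 1 had an unadjusted p under 0.05, with sums of 2107 and 2687 against 2112 and 2719. That gene was Cma1, a mast cell chymase, which read 148 and 157 against 61.6 and 65.3 without overlap by 1 of its 3 probe sets. Its log2 change was 1.09 (SE 0.290, adjusted p = 0.0857 by limma), and it passed as higher with dim probe sets left out (0.0394). The mast cell protease Mcpt1, by a probe set with the suffix f, made up most of each mast cell sum, and the other 9 markers summed to 855 and 953 against 675 and 971. Cma1 and Mcpt1 were named after their values were seen. Of 6 natural killer cell markers 0 passed and 0 had an unadjusted p under 0.05, with sums of 695 and 814 against 635 and 651. Of 10 neutrophil markers 0 passed and 0 had an unadjusted p under 0.05, with sums of 1422 and 1668 against 1325 and 1550. Of these 4 lists, the macrophage sums differed between the groups by more than between arrays of a group. The count of macrophage markers that rose was 5 to 7 with 1 array left out.

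The B cell markers (0 of 7) and the T cell markers (0 of 7) did not pass either, each with 1 at an unadjusted p under 0.05. Their sums were 2327 and 1715 against 1665 and 1822 for B cells, and 454 and 739 against 481 and 524 for T cells. Megakaryocyte markers (3 of 4 measured rose, Gp1bb, Gp5 and Gp9) and erythroid markers (7 of 8 rose) moved with the members as well, with sums of 1191 and 1288 against 237 and 306, and of 37557 and 40114 against 12958 and 13682. The erythroid markers that rose were Hbb-bh1, Hba-a1, Hbb-y, Alas2, Hba-x, Slc4a1 and Epor. Without either hCD4 array, 4 of the erythroid markers rose. Endothelial markers (Tie1 and Kdr) and fibroblast markers (Col3a1 and Fn1) had 1 higher and 1 lower each, in that order, of 8. Their sums were 5012 and 4226 against 4869 and 5689, and 4391 and 4195 against 7061 and 6869. Fn1 read 2538 and 2002 against 5265 and 5411 and made up most of the hCD4 fibroblast sums. The lower fibroblast sums on the Hemangioblast arrays rest on this 1 gene, and 5 of the 8 fibroblast markers had a positive log2 change. Kdr, the gene of the sorting marker Flk-1, read 648 and 570 against 1625 and 2003 (log2 change -1.55, adjusted p = 0.00158 by limma). The files give no detection calls, so a low reading is not a measured absence. The part that any of these cell types has in the changes of the members was not tested.

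**Figure D5:**
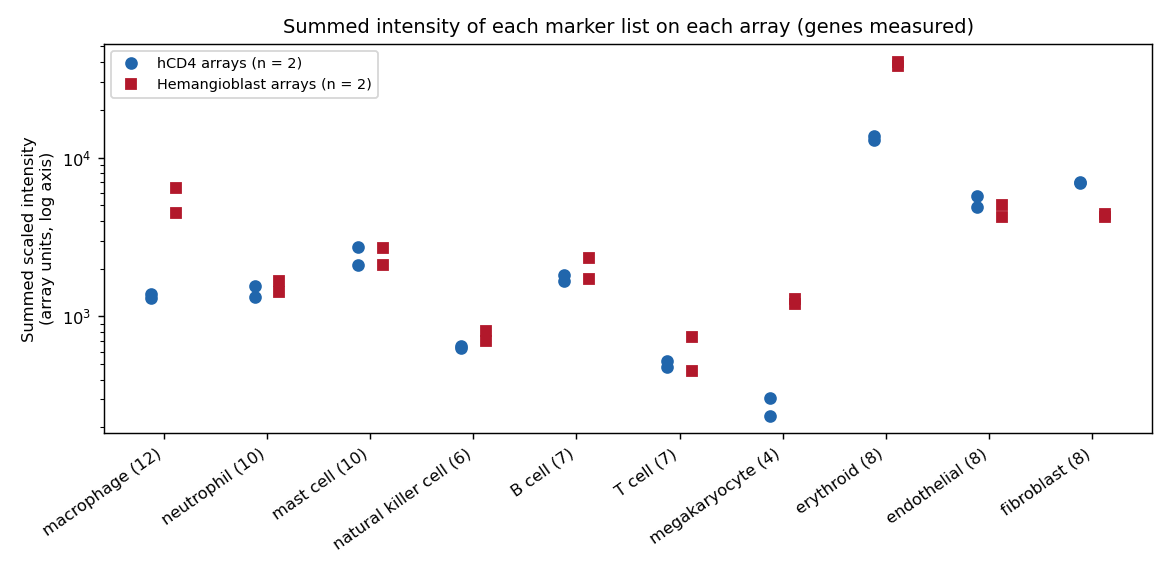
Summed scaled intensity of each marker list on each array, on a log axis, with the number of genes measured in parentheses. The Hemangioblast points stand well above the hCD4 points for the macrophage, megakaryocyte and erythroid lists and just above them for the natural killer cell list. They lie below them for the fibroblast list, where Fn1 makes up most of the hCD4 sums, and overlap them for the others.

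The probe sets most like the adaptors were found by the Euclidean distance between log2 values over the 4 arrays, after each was centred on its own mean. This is a description, and with 4 arrays it mostly reflects a like difference between the groups. Nearest to Tyrobp were Ccl9, a myeloid chemokine (distance 0.60), Ctss, a lysosomal protease (0.60), and C1qb, a complement chain of macrophages (0.72), by a probe set with a log2 change of 5.02. The probe set that stands for C1qb among the markers disagreed, with a log2 change of 0.55 (adjusted p = 0.402). Nearest to Fcer1g by 160692_at were Cd47, the ligand of the inhibitory receptor Sirpa (0.26), Gp1bb of the platelet von Willebrand factor receptor (0.34), and Ncf4, a subunit of the phagocyte oxidase (0.35). Cd47 read 990 and 856 on the Hemangioblast arrays against 47.5 and 56.4 on hCD4. Nearest to 162181_f_at were Hbb-b2, an adult beta-globin (0.44), Lsp1, a leukocyte cytoskeletal protein (0.47), and Lst1, a leukocyte gene of the major histocompatibility region (0.63), so the nearest genes differed between the 2 probe sets of Fcer1g. The nearness of these genes to Fcer1g depends on the added constant. With a constant of 1 the log2 change was 5.82 for 160692_at, 4.13 for Cd47, 4.28 for Gp1bb and 4.1 for Ncf4. With 64 these were 2.03, 3.09, 2.33 and 2.63. For 162181_f_at, Hbb-b2, Lsp1 and Lst1 they were 5.24, 3.86, 4.1 and 3.27 with 1, and 2.07, 3.1, 2.84 and 2.6 with 64. Which genes are nearest with another constant was not tested.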

How the data were processed

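The values deposited by the authors are linear intensities, 1 for each probe set on an array; how they were computed from the scans is not given in the sources used here. All 4 columns were used and 0 left out. Of 12488 probe sets, 66 controls were removed. Each array was scaled to the average trimmed mean (2% trimmed at each end), 16 was added and log2 taken. Of the tested probe sets, 10833 had 1 symbol in the platform annotation, 396 several and 1193 none. Gene identifiers matched 10817 of the symbols to a RefSeq table, and 0 changed. Where 1 probe set stands for a gene, it has the highest mean log2 value. The main test was limma 3.58.1 in R 4.3.3 (lmFit, eBayes with an intensity trend), two-sided, without a block, with 2 residual and 6.18 prior degrees of freedom. It was tested on simulated data. With 2 arrays a group, the smallest two-sided exact permutation p is 0.333, so no such test was run. The members and lists were chosen with earlier results of these data known. Named are all members, 4 genes of each partner list with the smallest p, the 3 probe sets nearest to each adaptor probe set, and markers that passed. Genes outside this rule are marked. Figures used matplotlib 3.10.9.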

Additional observations from a re-analysis of the deposited data

Results flagged for a closer look

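A probe set that was left out of the members because the annotation lists 2 genes for it, one of them Lilr4b, was higher on the Hemangioblast arrays. Its scaled intensity was 502 and 552 there against 28.7 and 43.3 on hCD4, and limma gave a log2 change of 3.40 with SE 0.276 (adjusted p = 0.00046). It was singled out because it lies outside the member measurements and shows a signal well above its level in the hCD4 group. Which of the 2 genes it reports was not tested.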

How the results depend on the processing

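The alternatives were a constant of 1 or 64, median scaling, no scaling, quantile normalization, no intensity trend, a minimum mean intensity of 100, the replicate number as a block, and each array left out in turn. The count of all probe sets past the threshold was 556 as reported, 272 without scaling, 220 without an intensity trend, 853 of 8366 with dim probe sets left out, and 219 to 517 with 1 array left out. Member probe sets past the threshold numbered 5 under each alternative that used all 4 arrays and 5 to 6 with 1 array left out. Partner genes numbered 11 as reported and 5 to 9 with 1 array left out. With the replicate number as a block the counts were 710 over all probe sets and 5 over the members. The deviations of same-numbered arrays correlated with r = -0.01 across probe sets. This rests on 1 difference per group and cannot decide whether same-numbered arrays share a culture or batch, which the labels do not give. Signs turned for Fcgr3 (-0.07 with quantile normalization, -0.51 and -0.06 without Hemangioblast replicate 2 and hCD4 replicate 1), Cd3g and Cd3d. With 1 array left out these ranged from -0.51 to 0.82, -0.10 to 1.43 and -1.18 to 0.05. With 1 array left out, the lone array is assumed to vary like the other group, and with 2 arrays in each group and dim signals such as those of Fcgr2b and Fcgr3, moderate changes may go undetected.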
